A study of Ctenopharyngodon idella and Danio rerio with 13 samples.

Results

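Of 31314 named gene entries counted in sperm libraries, 5 are described here: gbf1, plxnb1a, pla2g7, ptpn1 and caprin2. They were selected on their log2 change in counts between sperm of surrogate zebrafish and sperm of grass carp, the largest drops among entries with a gene symbol that passed the call, level and separation limits given below, so that drop is described below without a test. The surrogates (GSCT, for germline stem cell transplantation; labelled genotype surrogate reproduction) are zebrafish hosts of grass carp germ cells. The series title states that the transplanted stem cells were female and the sperm all X. They gave 3 libraries, labelled with the grass carp as their organism. The other groups are wild-type grass carp (5 libraries) and wild-type zebrafish (5 libraries). Each library came from the sperm of a different fish, with poly(A) RNA turned into cDNA by a full-length amplification kit made for single cells. The sources used here give no ages, no number of stem cell donors and no account of germ cells the hosts may still have had.

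The 5 genes belong to unlike pathways. GBF1 switches on ARF GTPases at the Golgi, which then recruit the COPI vesicle coat, and secretion through the Golgi depends on this step. Plexin B1, of which plxnb1a encodes a fish form, is a cell-surface receptor for class 4 semaphorins and is best known from axon guidance. In mammals PLA2G7 is a secreted enzyme that inactivates platelet-activating factor (PAF), and PTPN1 (PTP1B) is a phosphatase of the endoplasmic reticulum that removes phosphate from the insulin receptor and from JAK kinases. CAPRIN2 is an RNA-binding protein related to the stress granule protein CAPRIN1, and in vertebrate embryos it also promotes Wnt signalling through the receptor LRP6. Mature sperm transcribe little, so RNA in sperm is mostly carried over from earlier germ cell stages.

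The total of counts on named entries ran from 376926 to 2602370 in GSCT libraries, from 1335167 to 5471312 in grass carp libraries and from 487 to 248321 in zebrafish libraries. Levels are given as CPM, the usual scaling of counts to those totals. The zebrafish reads were counted on grass carp gene symbols, so a zebrafish value also depends on which reads align to another species' genes. Nearly all of the 31314 named entries had a count in each GSCT library (28173 to 30003 entries) and each grass carp library (29614 to 30154). In zebrafish libraries 237 to 6264 had one. A count on a gene is thus no sign of a cell type here, nor alone a sign that sperm express the gene. Single markers of testis somatic cells, for example, had GSCT means from 9.44 CPM (star) to 84.2 CPM (hsd17b3). The GSCT means of pla2g7, ptpn1 and caprin2 lie in that range. The source of so broad a signal was not tested. Marker lists did not separate sperm from other cell types in GSCT or grass carp libraries. The 22 sperm markers found in the files summed to 991 to 1105 CPM in GSCT and 1087 to 1212 CPM in grass carp libraries, and 0 of them had no count in either group. The 18 blood and leukocyte markers summed to 502 to 539 CPM in GSCT and 591 to 827 CPM in grass carp libraries, and 0 of these were without a count either. The 13 markers of testis somatic cells summed to 356 to 374 CPM and 342 to 389 CPM in the same order. The 14 germ cell and meiosis markers summed to 552 to 622 CPM in GSCT and 668 to 884 CPM in grass carp libraries. By the edgeR comparison described below, 0.849% of all tested entries fell in GSCT and 3.49% rose. By it 2 of the 14 germ cell markers and 1 of the 18 blood markers fell. Of the 22 sperm and 13 testis somatic markers 0 fell, and 0 markers of any list rose. The germ cell markers that fell were tdrd6 (edgeR adjusted p = 0.0138) and sycp1, which encodes part of the meiotic synaptonemal complex (-0.64 ± 0.18, log2 with SE, edgeR adjusted p = 0.0447). The blood marker was alas2, of heme synthesis in blood (-1.22 ± 0.31, edgeR adjusted p = 0.0288). The call of alas2 was lost without GSCT replicate 1 or 2 (edgeR adjusted p = 0.194 and 0.146), and that of sycp1 without GSCT replicate 1, 2 or 3 (0.0638, 0.2996 and 0.0989) or grass carp replicate 1 or 3 (0.0794 and 0.0823). In zebrafish libraries 6 of the 22 sperm markers, 9 of the 14 germ cell markers, 12 of the 13 testis somatic markers and 12 of the 18 blood markers had no count. In such bulk samples, fewer cells of a type and less RNA per cell cannot be told apart, and the part of other cell types in the results below was not tested.

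All 5 genes were abundant in grass carp libraries, lower in GSCT libraries and close to or at 0 in zebrafish libraries. The exchange factor gene gbf1 was at 2856, 428, 831, 2284 and 1604 CPM in grass carp replicates 1 to 5. In GSCT replicates 1 to 3 it was at 176, 109 and 135 CPM. The groups did not overlap, and the lowest grass carp library was 2.44 times the highest GSCT library. The grass carp mean was 1601 ± 1001 CPM (SD, n = 5) and the GSCT mean 140.1 ± 33.3 CPM (SD, n = 3), an 11.4-fold ratio, and the log2 change of GSCT minus grass carp was -3.45 ± 0.47 (SE).

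The plexin gene plxnb1a was at 21147, 2164, 3363, 4964 and 2023 CPM in grass carp replicates 1 to 5. In GSCT replicates 1 to 3 it was at 1577, 122 and 122 CPM. A single library stood far above the others in each group, replicate 1 in both cases, and the gap between the groups was narrow, the lowest grass carp library being 1.28 times the highest GSCT library. The log2 change was -3.40 ± 0.87 (SE), the least precise of the 5. Leaving out GSCT replicate 1 gave -5.72 ± 0.92 and leaving out grass carp replicate 1 gave -2.27 ± 0.60, so its size rests on those libraries.

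The PAF hydrolase gene pla2g7 was at 445, 146, 57.9, 263 and 205 CPM in grass carp replicates 1 to 5. In GSCT replicates 1 to 3 it was at 37.7, 35.1 and 42.4 CPM. The GSCT libraries lay close together, and grass carp replicate 3 came nearest to them, at 1.36 times the highest. The log2 change was -2.51 ± 0.46 (SE). The highest GSCT value rested on 16 counts, with a Wilson 95% interval from 26.1 to 68.96 CPM that reaches past grass carp replicate 3. The reads were amplified and carry no molecular identifiers, so such intervals cover counting error only.

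The phosphatase gene ptpn1 was at 562, 269.7, 159.6, 409.7 and 607 CPM in grass carp replicates 1 to 5. In GSCT replicates 1 to 3 it was at 73.8, 56.1 and 76.9 CPM. The lowest grass carp library was 2.08 times the highest GSCT library, and the log2 change was -2.51 ± 0.35 (SE), the most precise of the 5. The RNA-binding protein gene caprin2 was at 393, 108, 133, 289 and 456 CPM in grass carp replicates 1 to 5. In GSCT replicates 1 to 3 it was at 60.7, 46.3 and 47.8 CPM. Here the lowest grass carp library was 1.78 times the highest GSCT library, and the log2 change was -2.33 ± 0.39 (SE).

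**Figure D1:**
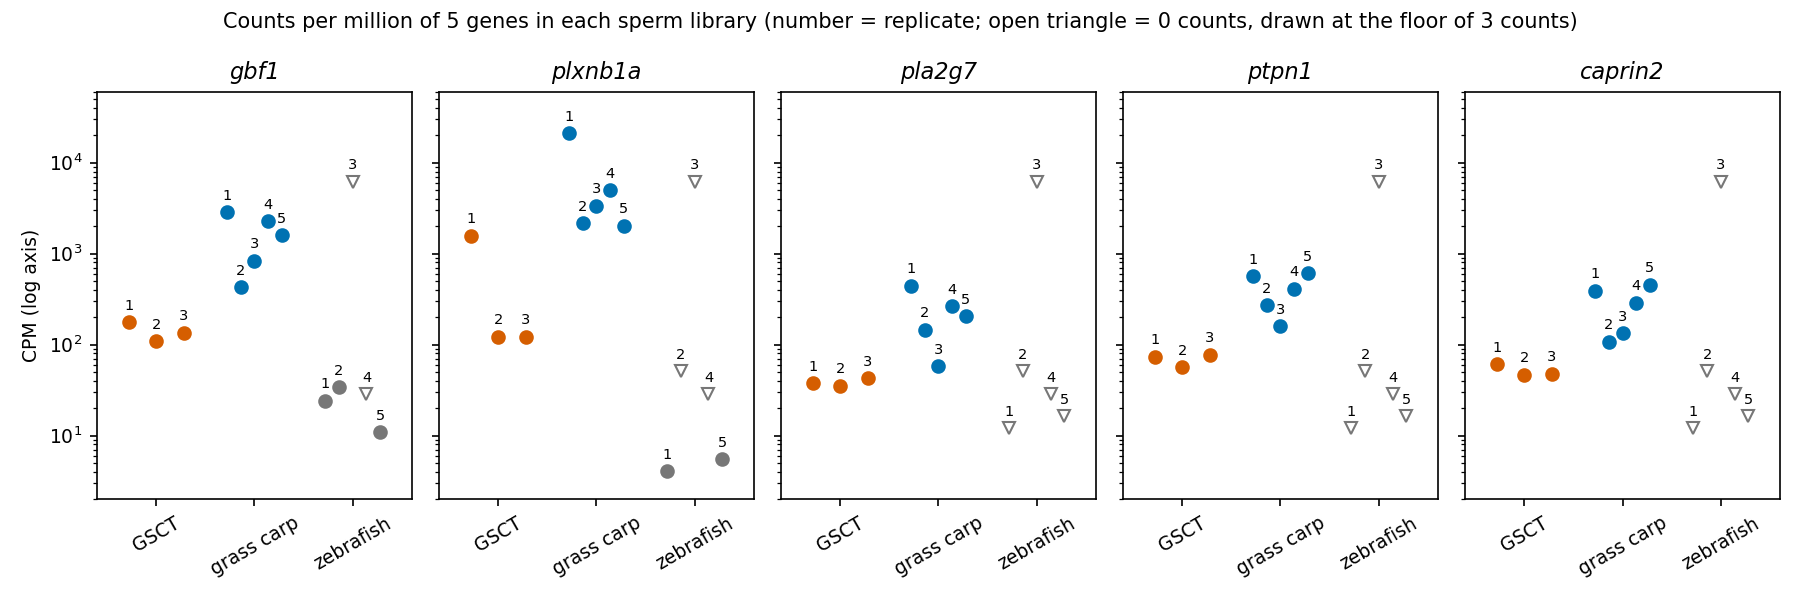
CPM on a log axis of the 5 genes in each of 13 sperm libraries, by group, with the replicate number above each point; open triangles are libraries without a count, drawn at the CPM that 3 counts would give. Every GSCT library lies below every grass carp library for all 5 genes, most narrowly for plxnb1a, where GSCT replicate 1 is at 1577 CPM and grass carp replicate 5 at 2023 CPM.

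Such a separation, every GSCT library below every grass carp library, was found for 9.67% of the 28165 entries tested. A call at adjusted p under 0.05 (edgeR quasi-likelihood test, Benjamini-Hochberg) was made for 4.34% of the tested entries, and for 0.849% as a drop. With these limits and a mean of at least 20 CPM in grass carp, the 5 genes are the largest drops with a symbol. The limits were set around a given list of genes chosen for large drops, so meeting them is no result about the 5 genes. They were met by 194 entries, 159 of them with a symbol. The last of the 5 was caprin2 (-2.33 ± 0.39, log2 change with SE). Next came ier3, an immediate early gene (-2.31 ± 0.52), so the list ends in no gap. Ranked with the symbol-less entries, LOC127512693 (-3.29 ± 0.31) and LOC127521766 (-2.96 ± 0.42) would stand above pla2g7.

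Together the 5 genes took 2.54% of the named counts in grass carp replicate 1 (Wilson 95% interval 2.53 to 2.55) and 0.312%, 0.454%, 0.821% and 0.489% in replicates 2 to 5. In GSCT libraries they took 0.192%, 0.0369% and 0.0424%. Most of the share in grass carp replicate 1 was plxnb1a, with 108212 of 129991 counts.

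In zebrafish libraries pla2g7, ptpn1 and caprin2 had no count. That was common there, as only 237 to 6264 of the 31314 named entries had a count in each zebrafish library. Among the list genes described below, 18 of 36 (ARF and COPI), 16 of 42 (plexin and semaphorin) and 15 of 19 (PAF) had none in any zebrafish library. For the phosphatase and caprin lists it was 13 of 27 and 9 of 36. The folds below are thus not particular to these genes. A floor of 3 counts over the whole zebrafish group is 5.03 CPM. Against it the grass carp means were 44.4-fold higher for pla2g7, 79.9-fold for ptpn1 and 54.9-fold for caprin2. The GSCT means were 7.64-fold, 13.7-fold and 10.3-fold higher in the same order. These folds are not strict lower bounds, because the Wilson 95% upper limit for 0 counts was 6.44 CPM, above the floor. Entries for rRNA also held 9.24% to 86.1% of the named counts in zebrafish libraries, which left fewer counts for other genes. For gbf1 there were 6, 2 and 2 counts in zebrafish replicates 1, 2 and 5 and none in replicates 3 and 4, a pooled 16.8 CPM (Wilson 95% interval 9.10 to 30.8). For plxnb1a there was 1 count in each of replicates 1 and 5, a pooled 3.35 CPM (Wilson 95% interval 0.919 to 12.2). Zebrafish replicate 3, with 487 counts in all, gives a floor of 6160 CPM at 3 counts. All these folds concern counts on grass carp genes and not expression in zebrafish sperm.

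Levels within the grass carp group varied far more for these genes than for most others. The highest library exceeded the lowest 6.68-fold for gbf1, 10.5-fold for plxnb1a, 7.68-fold for pla2g7, 3.80-fold for ptpn1 and 4.22-fold for caprin2. The SD of log2(CPM + 1) over the 5 grass carp libraries was 1.12 for gbf1, 1.38 for plxnb1a, 1.09 for pla2g7, 0.80 for ptpn1 and 0.93 for caprin2. The median SD over the 17787 entries with a mean of at least 20 CPM in grass carp was 0.19. Of those entries 33 had a larger SD than gbf1, 18 a larger one than plxnb1a, 40 than pla2g7, 104 than ptpn1 and 70 than caprin2. Among GSCT libraries the picture differed by gene: the SD was 2.13 for plxnb1a, with 10 entries above it, but 0.34 for gbf1, 0.24 for ptpn1, 0.21 for caprin2 and 0.14 for pla2g7, against a median of 0.23. These SDs are descriptions, because the grass carp and GSCT values also chose the genes.

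The 5 genes shared part of their order among the grass carp libraries. Replicate 1 was above replicates 2, 3 and 4 for 5 of 5 genes, and replicate 4 was above replicates 2 and 3 for 5 of 5. Replicates 2 and 3 held the 2 lowest places for gbf1, pla2g7, ptpn1 and caprin2. Replicate 5 broke the pattern: it was highest for ptpn1 and caprin2, in the middle place for gbf1 and pla2g7, and lowest for plxnb1a.

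**Figure D2:**
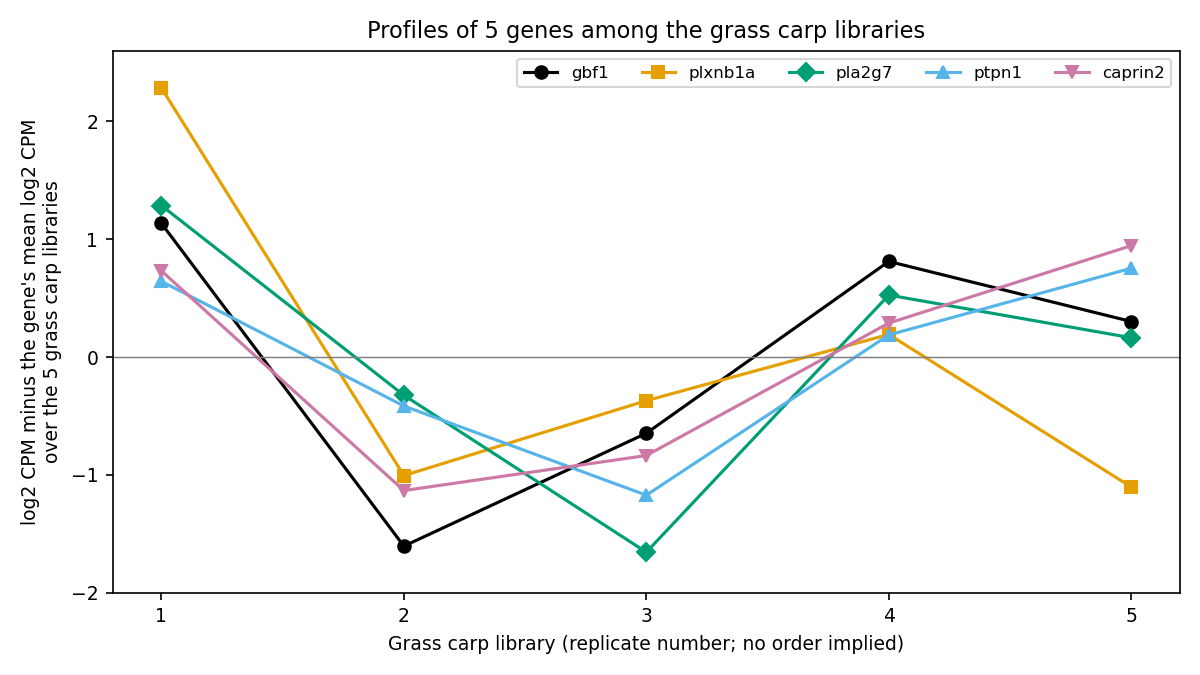
The log2 CPM of each gene minus its mean over the 5 grass carp libraries, with the replicate number on the x axis and a line per gene that only guides the eye. The 5 genes lie above their mean in replicates 1 and 4 and below it in replicates 2 and 3, and in replicate 5 plxnb1a is at its lowest while ptpn1 and caprin2 are at their highest.

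The 5 libraries form 10 pairs, and for each pair of genes the number of library pairs ranked in the same order by both genes was counted. It was 9 of 10 for gbf1 with pla2g7 and for ptpn1 with caprin2. It was 8 of 10 for gbf1 with plxnb1a, gbf1 with caprin2 and pla2g7 with ptpn1. The lowest were plxnb1a with ptpn1 (5 of 10) and plxnb1a with caprin2 (6 of 10). Over all 10 gene pairs 74 of 100 such comparisons were alike. Leaving out each grass carp library gave from 66.7% (without replicate 1 or 4) to 90.0% (without replicate 5). The median over the other 17786 entries was 5 of 10 with each of the 5 genes. At least 8 of 10 were reached by 11.3% of entries with gbf1, 15.5% with plxnb1a, 6.70% with pla2g7, 4.53% with ptpn1 and 5.67% with caprin2. These background values are a weak yardstick. Most entries varied little among the grass carp libraries (median SD of log2(CPM + 1) 0.19, against 0.80 to 1.38 for the 5 genes), so counting error can set much of their order. The grass carp values also chose the 5 genes, so the counts of pairs are descriptions. With 5 libraries no correlation across samples is given.

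Some properties of the libraries moved with these levels and others did not. The order of total counts was the same as that of the genes in 3 (plxnb1a) to 7 (caprin2) of 10 library pairs, and the second highest gbf1 level came from replicate 4, the shallowest grass carp library. The share of counts on 13 mitochondrial protein genes, 0.0113% to 0.0278% in grass carp libraries, was ordered like the genes in 6 (caprin2) to 9 (pla2g7) of 10. The share on rRNA entries, 0.0553% to 0.118%, was ordered like plxnb1a in 10 of 10 and like ptpn1 in 5 of 10. The share on entries without a gene name, 0.00360% to 0.138%, was ordered alike in 6 (plxnb1a) to 9 (pla2g7 and ptpn1) of 10. Summed sperm markers were ordered alike in 3 to 6 of 10, testis somatic markers in 2 to 5, blood and leukocyte markers in 3 to 8 and germ cell markers, tdrd6 among them, in 5 to 8. The germ cell sum ran from 668 CPM in grass carp replicate 3 to 884 CPM in replicate 1. In the same 2 libraries tdrd6 alone was at 66.4 and 272 CPM, so much of that range was this 1 gene, whose entry overlaps that of pla2g7. The order of the sum without tdrd6 was not counted. The part of these properties in the shared order was not tested. Between the groups the mitochondrial and rRNA shares went against the 5 genes, at 0.618% to 1.79% and 0.994% to 1.79% in GSCT libraries.

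The entries nearest in profile over the 8 GSCT and grass carp libraries were other entries with lower counts in GSCT. Likeness was the root mean square difference of log2(CPM + 1) after each gene was centred on its own mean, over 17786 other entries. It includes the difference between the groups that chose the 5 genes, so their nearness to each other and to other entries low in GSCT, and their distance from the median entry, follow from that choice. Nearest to caprin2 was ca9, a carbonic anhydrase gene, at 0.17, where the median entry lay at 1.24 from caprin2. The same ca9 was nearest to ptpn1 (0.29, median entry 1.28) and next after 2 others for gbf1 (0.76, median 1.74) and pla2g7 (0.49, median 1.32). In grass carp replicates 1 to 5 ca9 was at 177, 61.4, 53.0, 130.3 and 213 CPM, and in GSCT replicates 1 to 3 at 30.4, 26.2 and 23.9 CPM. Its libraries thus stood high in replicates 1, 4 and 5 and low in 2 and 3, as for gbf1, pla2g7, ptpn1 and caprin2. The search that picked ca9 used these same libraries, so that likeness follows from the search.

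For the same reason some of the 5 genes were nearest to one another: ptpn1 for pla2g7 (0.39), caprin2 for gbf1 (0.63), gbf1 for plxnb1a (1.21, median entry 2.36). After ptpn1, the entry nearest to pla2g7 was pex7, the receptor that brings a class of enzymes into peroxisomes (0.48). Close to ptpn1 was also ganabb, for a subunit of glucosidase II in the endoplasmic reticulum (0.34), and close to caprin2 foxo6b, of the forkhead transcription factors (0.34). These had log2 changes of -1.79 ± 0.35 for pex7, -2.26 ± 0.39 for ganabb and -1.87 ± 0.32 for foxo6b (SE). The nearest entries lay farther from plxnb1a. After gbf1 came zgc:56095 (1.44) and LOC127512693 (1.46), and zgc:56095 shared with it a high value in grass carp replicate 1 (404 CPM, against 11.7 to 72.3 CPM in the other grass carp libraries). The search used these same libraries, so the shared high value is no separate result. The log2 change of zgc:56095 was -3.05 ± 1.05 (SE). Its groups overlapped, with 14.99 CPM in GSCT replicate 1, so zgc:56095 failed the separation limit given above, whatever its call.

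The genes next to the 5 in a grass carp gene table (RefSeq assembly HZGC01) asked whether whole neighbourhoods were low in GSCT. Of 20 neighbours, 2 on each side of each gene, 1 fell and 0 rose (edgeR quasi-likelihood test, Benjamini-Hochberg adjusted over all 28165 entries, of which 0.849% fell and 3.49% rose). So few genes set no neighbourhood apart from that background. The neighbour that fell was tdrd6, for a tudor protein of germ granules, whose entry overlaps that of pla2g7 in that table. It was at 272, 112, 66.4, 168 and 118 CPM in grass carp replicates 1 to 5 and at 49.2, 54.7 and 45.1 CPM in GSCT replicates 1 to 3. Its 5 grass carp libraries had the same order as those of pla2g7, 10 of 10 library pairs. The log2 change of tdrd6 was -1.47 ± 0.33 (SE; edgeR adjusted p = 0.0138), and the call was lost when any GSCT library was left out (edgeR adjusted p = 0.0906, 0.101 and 0.0605 without GSCT replicate 1, 2 or 3). The files do not state whether counting used strand, so reads in the overlap cannot be assigned to either gene.

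The other 19 neighbours did not pass, with log2 changes from -0.64 to 0.68. Beside gbf1 stand pitx3, a homeobox gene (-0.31 ± 0.28, edgeR adjusted p = 0.584), and LOC127524439 (-0.50 ± 0.17, adjusted p = 0.113). Beside plxnb1a stand si:ch211-220i18.4 (0.13 ± 0.15, edgeR adjusted p = 0.687) and zgc:171775 (-0.12 ± 0.18, adjusted p = 0.772). On the other side of pla2g7 is mep1a.1, a meprin metalloprotease gene (-0.64 ± 0.18, edgeR adjusted p = 0.0537), which passed when scaled by library size alone (adjusted p = 0.0356) or without a filter (adjusted p = 0.0485). Beside ptpn1 stand adipor1b, for an adiponectin receptor (-0.0021 ± 0.14, edgeR adjusted p = 0.997), and cebpb, a transcription factor gene (0.68 ± 0.28, adjusted p = 0.189). Beside caprin2 stand sinhcaf (-0.10 ± 0.19, edgeR adjusted p = 0.832) and btg1 (-0.17 ± 0.28, adjusted p = 0.791).

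**Figure D3:**
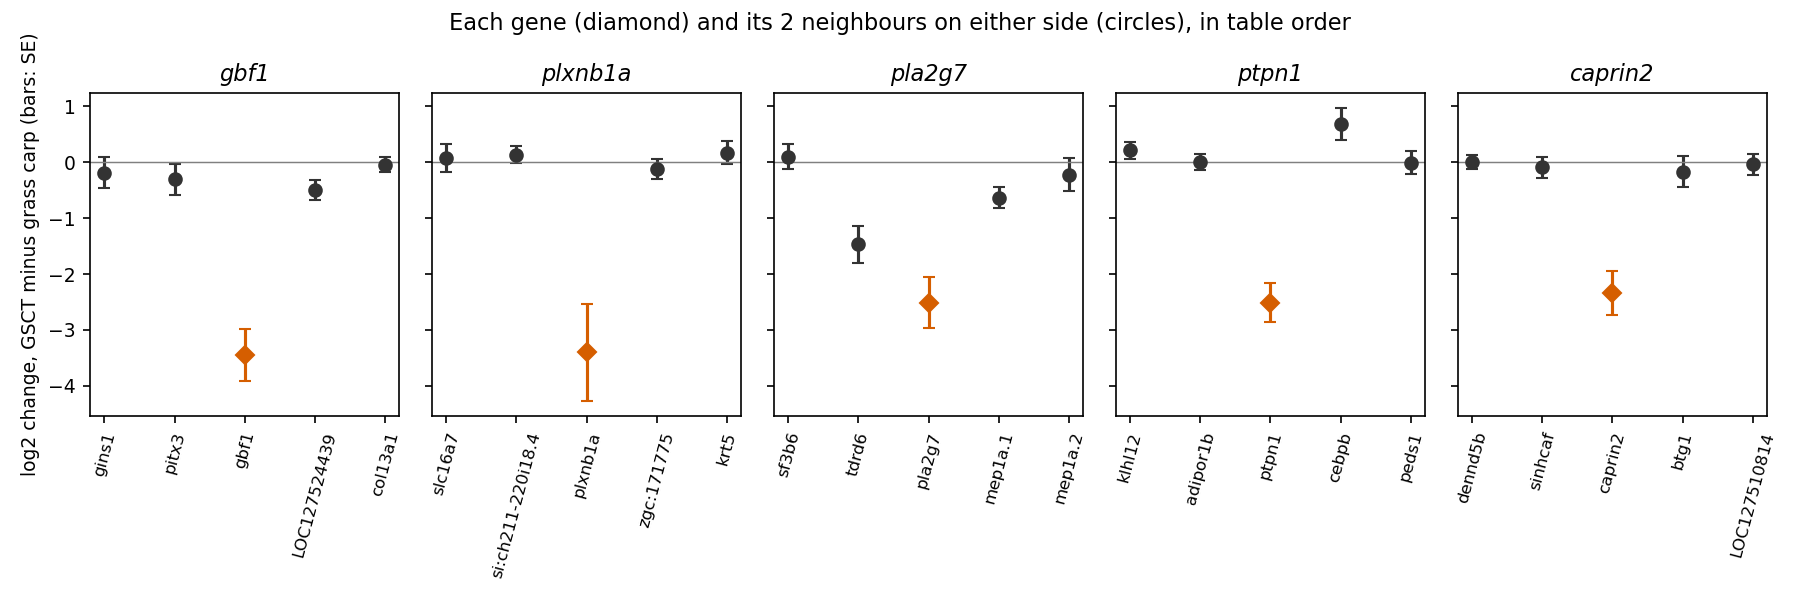
The log2 change, GSCT minus grass carp, of each of the 5 genes (diamonds) and its 2 neighbours on either side in table order (circles), with SE bars. The diamonds lie between -3.45 and -2.33, while the neighbours lie between -0.64 and 0.68 apart from tdrd6 at -1.47.

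Of 11 close relatives listed for the 5 genes 9 were tested, with log2 changes between -0.39 and 0.08. They were relatives of gbf1, plxnb1a, ptpn1 and caprin2, and no relative of pla2g7 was among them. Of 9 tested, 0 passed by edgeR's adjusted quasi-likelihood test and 0 by DESeq2, and 2 had an unadjusted p under 0.05. With 4.34% of all entries called, a count of 0 among 9 is near the background. Levels of the relatives, and of the list genes below, carry the limit given above: a count alone does not show expression in sperm. The other large ARF exchange factors, arfgef1 and arfgef2, had values of -0.12 ± 0.13 and 0.08 ± 0.13 (log2, SE; edgeR adjusted p = 0.661 and 0.790). The second plexin B1 gene, plxnb1b, had a mean of 184 ± 10.8 CPM over GSCT libraries (SD, n = 3) and of 183 ± 23.5 CPM over grass carp libraries (SD, n = 5), a log2 change of 0.07 ± 0.14 (edgeR adjusted p = 0.843). The plexins plxnb2b and plxnb3 had values of -0.38 ± 0.15 and -0.04 ± 0.12 (edgeR adjusted p = 0.155 and 0.893). The nearest phosphatases, ptpn2a and ptpn2b, had values of -0.25 ± 0.19 and -0.39 ± 0.16 (edgeR adjusted p = 0.527 and 0.167). Of the CAPRIN1 genes, caprin1a had a value of -0.02 ± 0.24 and caprin1b one of -0.11 ± 0.17 (edgeR adjusted p = 0.980 and 0.778).

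Wider lists around each gene were called about as often as all entries when both directions were counted together. Of 160 listed genes tested, 7 passed by the same edgeR test, 3 higher and 4 lower, where 4.34% of all tested entries passed, 3.49% higher and 0.849% lower. By direction, the drops were a larger share of the lists than of all entries and the rises a smaller one, each on few genes. The median log2 change of all entries was -0.01.

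Among 36 genes of the ARF and COPI list 2 fell and 0 rose (median log2 change -0.03). They were arf2b, an ARF GTPase gene (-0.98 ± 0.24, edgeR adjusted p = 0.0232), and arcn1b, for the delta subunit of the COPI coat (-0.69 ± 0.17, adjusted p = 0.0217). Among 42 plexin, neuropilin and semaphorin genes 2 rose and 1 fell (median -0.04). The co-receptor gene nrp1a rose from 55.2 ± 3.91 CPM in grass carp (SD, n = 5) to 78.3 ± 6.23 CPM in GSCT (SD, n = 3), by 0.55 ± 0.13 (edgeR adjusted p = 0.0157). The semaphorin sema6dl rose by 0.53 ± 0.14 (edgeR adjusted p = 0.0321). The class 4 semaphorin sema4d, whose mammalian protein is a ligand of plexin B1, fell by 0.54 ± 0.14 (log2 change -0.54, edgeR adjusted p = 0.0344).

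Of 19 genes of PAF and phospholipase A2 metabolism 0 passed by edgeR's quasi-likelihood test and 0 by DESeq2, with 2 at an unadjusted p under 0.05 (median -0.04). Among 27 genes of non-receptor tyrosine phosphatases and substrates of PTPN1, 1 rose and 0 fell (median -0.16). It was ptpn12, a phosphatase that acts on adhesion proteins, which went from 32.0 ± 10.98 CPM in grass carp (SD, n = 5) to 67.6 ± 9.37 CPM in GSCT (SD, n = 3), a log2 change of 1.14 ± 0.23 (edgeR adjusted p = 0.00545). Among 36 genes of caprins, RNA granules and Wnt co-receptors 1 fell and 0 rose (median -0.10). It was ddx6, an RNA helicase gene of processing bodies (-1.13 ± 0.24, edgeR adjusted p = 0.00980).

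Without GSCT replicate 2 none of these 7 genes passed by edgeR's test, with adjusted p from 0.0645 (sema6dl) to 0.265 (sema4d). Without GSCT replicate 1 the gene ptpn12 passed, and arf2b (edgeR adjusted p = 0.109), arcn1b (0.0692), nrp1a (0.0829), sema4d (0.0947), sema6dl (0.219) and ddx6 (0.118) did not. Calls were also lost without GSCT replicate 3 for arf2b, sema4d and sema6dl (edgeR adjusted p = 0.0513, 0.0545 and 0.0781). Without grass carp replicate 5 they were lost for nrp1a, sema4d and sema6dl (edgeR adjusted p = 0.0527, 0.0705 and 0.0926), and without grass carp replicate 3 for sema6dl (0.0674).

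**Figure D4:**
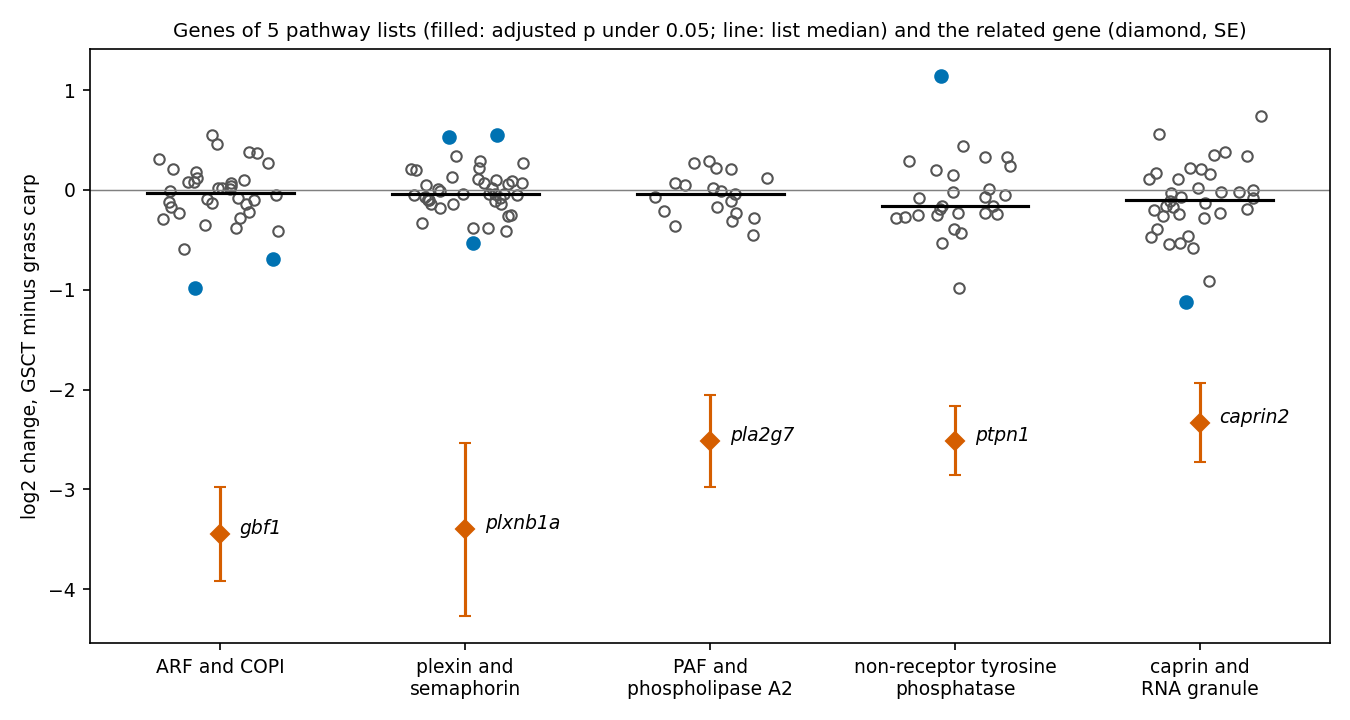
The log2 change, GSCT minus grass carp, of each tested gene in 5 lists (open circles; filled where adjusted p was under 0.05), with the list median as a line and the related gene of the 5 as a diamond with its SE. List members lie between -1.13 and 1.14, with medians from -0.16 to -0.03, and the diamonds lie from -3.45 to -2.33, which their selection on large drops fixed.

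**Figure D5:**
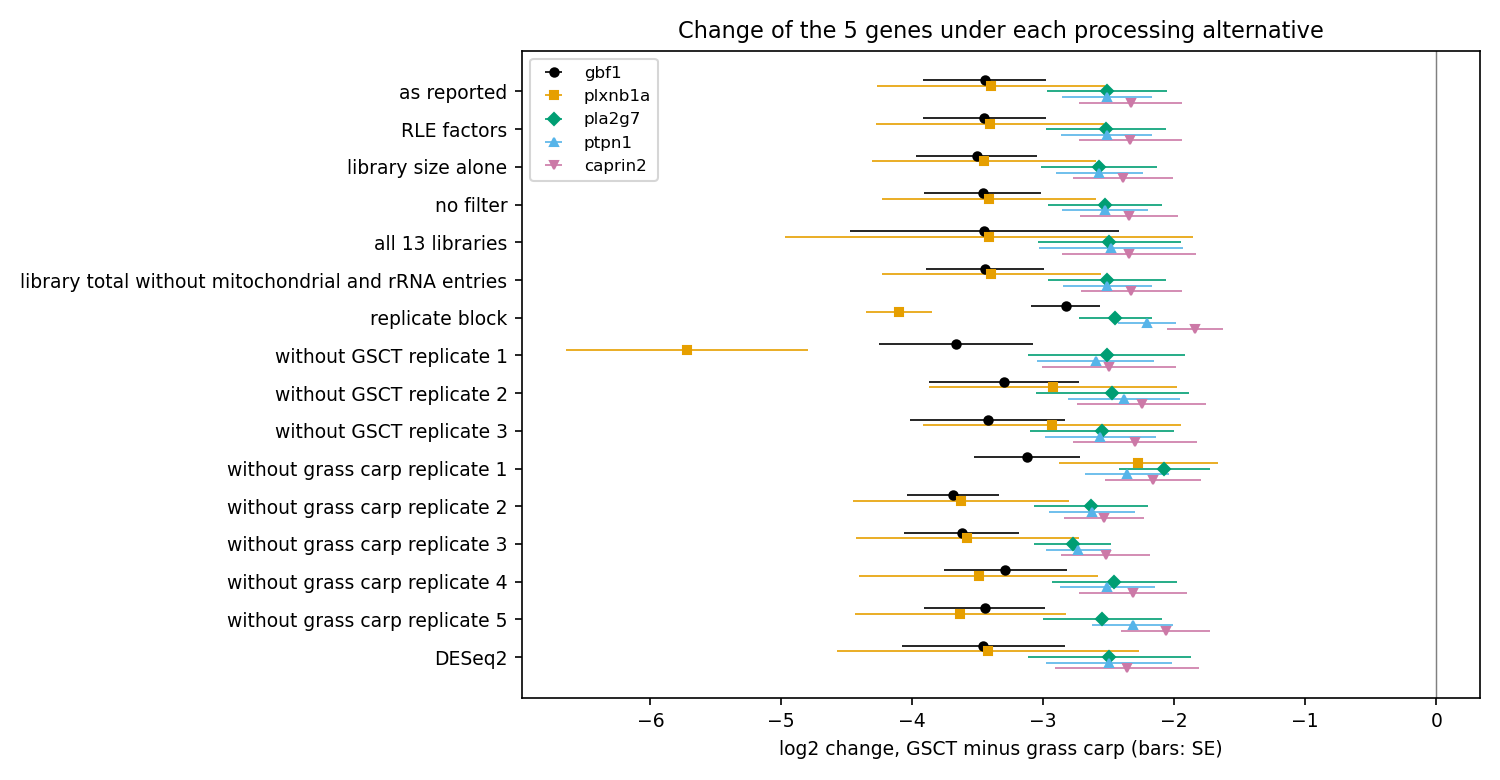
The log2 change, GSCT minus grass carp, with SE, of the 5 genes as reported and under 15 alternatives. All values are below 0, and plxnb1a has the widest range, from -5.72 with GSCT replicate 1 left out to -2.27 with grass carp replicate 1 left out.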

How the data were processed

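The authors deposited a file of unnormalized gene counts for each library. Per the submitters' processing notes, the tools were HISAT2, featureCounts, Subread, SAMtools, fastp, FastQC and CASAVA, with no versions or roles. The sources used here do not give the genome build, the strand setting or how multiply mapped reads were treated, so coordinates are left out and near-identical copies are uncertain. Of 31338 entries, 24 without a gene name were left out of totals and tests. They held 0.172% to 0.678% of counts in GSCT, 0.00360% to 0.138% in grass carp and 13.8% to 77.9% in zebrafish libraries. The RefSeq table of assembly HZGC01 served for gene types and neighbours only. Apart from tRNA genes, 29689 of 29689 named entries matched it by symbol.

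The 3 GSCT and 5 grass carp libraries were compared with edgeR 4.0.16 in R 4.3.3 (TMM factors, default filter by group with minimum count 10 and minimum total 15, quasi-likelihood F test, Benjamini-Hochberg adjusted p under 0.05). SE is the log2 change divided by the root of F. CPM uses totals of named counts. Folds against a group at 0 use a floor of 3 counts over the group. Named were the 5 genes, the 3 entries nearest to each in profile, 2 neighbours on each side, close relatives, and up to 4 called genes per list. The genes shown as flanking in the text are a selection of the neighbours, made after their values were seen. The 5 genes and all lists were chosen with earlier results of these data known. Alternatives were other scalings, DESeq2 1.42.0, no filter, all 13 libraries, each library left out, and the replicate number as a block.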

Additional observations from a re-analysis of the deposited data

Results flagged for a closer look

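A library was picked out where its gap to the nearest of its group exceeded the Dixon 95% limit for the group's range. Of 20 groups of values checked 4 had such a library. Chance gives about 1 in 20 for independent and normally distributed values, and the distribution of these values was not tested. The 4 are not independent, as plxnb1a held 108212 of the 129991 counts of the 5 genes in grass carp replicate 1. The entry zgc:56095 was taken up only because its profile lay near that of plxnb1a over libraries that include this one. The grass carp values also chose plxnb1a, so what was picked out in grass carp replicate 1 is a description. All 4 lay in groups of 5 libraries, and no GSCT library was among them. Which groups made up the 20 is not given here, so the 4 are no full list. The absence of GSCT libraries is no sign that plxnb1a was even among them. It was at 1577 CPM in GSCT replicate 1 and at 122 CPM in GSCT replicates 2 and 3, a gap of nearly the whole range. In grass carp replicate 1, plxnb1a was at 21147 CPM, where the next library had 4964 CPM. In the same library the 5 genes together took 2.54% of counts, where the next had 0.821%, and zgc:56095 was at 404 CPM, where the next had 72.3 CPM. In zebrafish replicate 2, ganabb was at 33.8 CPM from 2 counts, where the next library had 4.03 CPM from 1 count.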

How the results depend on the processing

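The log2 changes of the 5 genes stayed below 0 under all 15 alternatives. Leaving out each library gave -3.69 to -3.12 for gbf1, -5.72 to -2.27 for plxnb1a, -2.78 to -2.07 for pla2g7, -2.73 to -2.32 for ptpn1 and -2.54 to -2.07 for caprin2. The value of plxnb1a without GSCT replicate 1 moved by more than the spread between replicates. That library was at 1577 CPM, and GSCT replicates 2 and 3 were at 122 CPM, so leaving it out lowers the GSCT level. The cause of the high level in that library was not tested. Same-numbered GSCT and grass carp libraries are different fish and did not deviate together across genes (r = 0.0479, 0.0590 and -0.00313). With the replicate number as a block the changes were -2.83, -4.10, -2.45, -2.21 and -1.84 in the order above, and 787 entries were called higher and 209 lower in GSCT.

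As reported, 984 entries were called higher and 239 lower in GSCT. Leaving out each library gave 262 to 1198 higher and 23 to 336 lower. All 13 libraries in the fit gave 458 higher and 54 lower, DESeq2 139 lower, and scaling by library size alone 422 lower. Among the 160 pathway genes 7 were called as reported, 3 with all 13 libraries, and 0 to 9 when a library was left out. The block ended the calls of sema4d (edgeR adjusted p = 0.0551), sema6dl (0.0592) and alas2 (0.0642), and DESeq2 those of sema4d (0.0580), sema6dl (0.0515), tdrd6 (0.0503) and sycp1 (0.0768). The share of library pairs ordered alike among the 5 genes was 74.0% as reported, 76.0% on raw counts and 66.7% to 90.0% when a grass carp library was left out. The depth of GSCT replicate 3, with 376926 counts, limits the lower group: 3 counts there are 7.96 CPM.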
